A study of Mus musculus with 13 samples.

Results

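Messenger RNA for 35 nuclear-encoded subunits of mitochondrial complex I was followed subunit by subunit across the microglial states of mouse spinal cord. The members were the rows of the deposited single-cell matrix whose symbol equals 1 of 35 listed subunit names, and 35 of 35 were found among 22598 features. Their counts were summed per library within each deposited cell type and each deposited microglial cluster, so that 1 state was set against another in the same library. Microglial state here means the deposited cluster number.

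Complex I takes electrons from NADH, hands them to ubiquinone and pumps protons across the inner mitochondrial membrane. Its N module binds NADH, its Q module reduces ubiquinone, and the proximal and distal parts of its membrane arm hold the proton channels. When ubiquinone is highly reduced, as during succinate oxidation in activated myeloid cells, electrons can run backwards through the complex, and this reverse electron transport yields superoxide at the N module. The members comprised 10 N-module, 5 Q-module, 9 proximal and 11 distal subunits, and the subunits encoded by mitochondrial DNA were outside the member list.

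All animals carried Cx3cr1YFPCreERT2:R26tdTomato, a tamoxifen-inducible Cre driven by the fractalkine receptor gene with a red reporter, which labels long-lived microglia and leaves short-lived blood cells unlabelled. Live spinal cord cells were sorted into a resident and an infiltrating gate from healthy controls and from mice at the peak or the chronic phase of experimental autoimmune encephalomyelitis (EAE), an immune-mediated model of multiple sclerosis. The resident gate gave 3 control, 2 peak and 3 chronic libraries, and the infiltrating gate gave 2 peak and 3 chronic libraries. By the deposited cell table, control a and b belong to the peak stage and control c to the chronic stage, and all 3 were used here as 1 control group for both stages. The labels name the libraries of a group as biological replicates and give no age, sex or number of mice per library. Libraries are lettered here within their group, and the letters carry no order.

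The 13 libraries held 22148 cells and 116091839 unique molecular identifiers (UMIs), with 802 to 63100 UMIs per cell, and 17670 cells were annotated as microglia. In the 8 resident libraries the annotated microglia gave 4196375 to 17965689 UMIs per library, with a median of 8446 and 8521 UMIs per cell in the peak libraries against 2466 to 4476 in the others. The libraries fell into 4 groups by the SLX identifier of the deposited cell table, read here as the sequencing pool. Among resident libraries, pool A held control a, and pool B control c and chronic c. Pool C held control b and both peak libraries, and pool D chronic a and b. Among the deposited microglial clusters, cluster 9 had the highest homeostatic markers (25261 to 30118 CPM, UMIs of the listed genes per 1000000 UMIs of the cells) and the lowest lipid-associated markers (2032 to 2750). Cluster 4 reached 21657 to 83659 CPM of lipid-associated markers such as Gpnmb and Spp1, a range that overlapped cluster 3 (17186 to 39441 CPM). Cluster 3 had 1605 to 3979 CPM of interferon response markers. Cluster 2 had 8350 to 9355 CPM of proliferation markers beside 1794 to 3157 CPM of interferon markers. Cluster 1 lay between clusters 9 and 4 on the homeostatic list (16580 to 24953 CPM), overlapped cluster 4 on the lipid-associated list (14354 to 28099 CPM) and was given no name. Cluster 9 made up 87.8% to 94.6% of control microglia, cluster 3 was the commonest state at the peak, and cluster 4 was the commonest in chronic a and b but cluster 1 in chronic c.

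The gene start regions are shown because YY1 and NRF1 are transcription factors known for binding near genes of the respiratory chain, and because members with the same motif can then be set beside their values. The searched window ran from 250 bases before to 50 bases after each gene start in RefSeq (build GRCm38.p6), on both strands, and 32 of 35 members had an entry. AAGATGGC (or its complement GCCATCTT), a core motif of YY1, was in the window of 7 members, 21.88% of those with an entry against 3.19% of all 27025 genes. In 7 of 7 the match lay on the gene's own strand, started 23 to 39 bases after the gene start, and its ATG was the annotated start codon. The windows are 30 bases long, 5′ to 3′ on the gene's strand, with the motif in capitals.
Ndufa3, chr7:3617384-3617413, plus strand: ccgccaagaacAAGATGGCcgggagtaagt
Ndufa9, chr6:126849097-126849126, minus strand: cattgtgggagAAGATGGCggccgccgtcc
Ndufb8, chr19:44555393-44555422, minus strand: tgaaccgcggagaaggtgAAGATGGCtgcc
Ndufc1, chr3:51408915-51408944, minus strand: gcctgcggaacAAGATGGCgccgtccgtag
Ndufs4, chr13:114388045-114388074, minus strand: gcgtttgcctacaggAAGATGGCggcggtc
Ndufs6, chr13:73328433-73328462, minus strand: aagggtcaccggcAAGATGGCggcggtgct
Ndufs7, chr10:80249462-80249491, plus strand: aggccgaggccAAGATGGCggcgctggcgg

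The NRF1 core GCATGCGC (or GCGCATGC) was in the window of 3 members, 9.375% against 3.049% of all genes, and in Ndufa11 the forward and reverse forms overlapped. The windows of these members carry the motif in capitals.
Ndufa6, chr15:82354356-82354385, minus strand: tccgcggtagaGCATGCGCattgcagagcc
Ndufa8, chr2:36049328-36049357, minus strand: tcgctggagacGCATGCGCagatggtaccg
Ndufa11, chr17:56717693-56717722, plus strand: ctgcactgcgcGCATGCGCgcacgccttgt

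A GABPA core, CCGGAAGT or ACTTCCGG, was in the window of 1 member, Ndufs3, or 3.125% against 4.307% of all genes. None of these matches overlapped a match of another motif among the 3 searched. A match of letters is a description of the window and no evidence of binding.

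Complex I transcripts took a larger share of the message in lipid-associated cluster 4 than in interferon cluster 3 of the same library. Summed over the 35 members, cluster 4 exceeded cluster 3 by 0.43 ± 0.13 on the log2 scale (SD, n = 6 libraries), a 1.35-fold difference, and was higher in 6 of 6. The summed level of cluster 4 was 5374 and 6622 CPM in peak a and b, 6681, 6994 and 5157 CPM in chronic a, b and c, and 6699 CPM in chronic infiltrating b, a library from the other gate that was mostly microglia. The level of cluster 3 in the same libraries was 3446 and 4602 CPM at the peak, 5442, 5362 and 3978 CPM in the chronic libraries, and 5268 CPM in chronic infiltrating b. Cluster 4 was thus the higher state inside each library, while the ranges over libraries overlapped (5157 to 6994 CPM against 3446 to 5442 CPM).

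**Figure D1:**
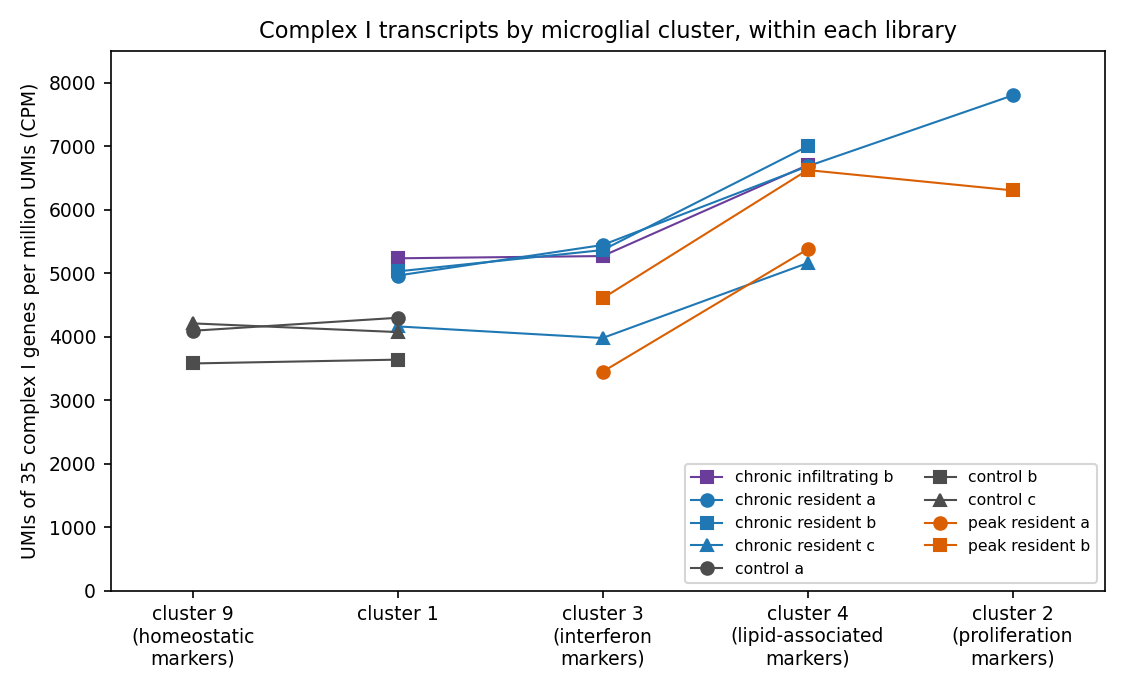
Summed CPM of the 35 members (vertical axis) in each microglial cluster (horizontal axis) with at least 50 cells, 1 point per library, with points of a library joined by a line. Cluster 4 lay above cluster 3 in 6 of 6 libraries, by 0.30 to 0.64 on the log2 scale.

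Against cluster 1, the summed members of cluster 4 were higher by 0.39 ± 0.07 on the log2 scale (n = 4 libraries, higher in 4 of 4). Cluster 3 and cluster 1 differed by 0.04 ± 0.09 (n = 4), less than the spread between libraries, and no member had a mean log2 ratio past log2(1.5) with every library on the same side (background 1.95% higher and 1.12% lower). In the controls, cluster 1 and homeostatic cluster 9 differed by 0.02 ± 0.06 (n = 3), with 4296, 3637 and 4071 CPM in cluster 1 and 4091, 3577 and 4208 CPM in cluster 9, and again no member passed that rule (background 3.48% higher and 3.4% lower). These clusters were made from the expression of the same cells, so state against state is a description and carries no test.

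Proliferating cluster 2 reached the 50-cell minimum in only 2 libraries with cluster 3, at 6302 CPM in peak b and 7796 CPM in chronic a, and exceeded cluster 3 there by 0.49 ± 0.05 on the log2 scale. Against cluster 4 its log2 ratio was 0.22 in chronic a and -0.071 in peak b, with 2 members higher and none lower by the counting rule (background 26.9% higher and 4.07% lower). With TMM scaling the summed ratio turned to -0.28, with none higher and 2 lower. With library totals, chronic a alone had 5 members higher, where 27.1% of all genes were higher. Peak b alone had 2 members lower with library totals, where 37.2% of all genes were higher. Control libraries held few cells of the disease-associated states. With a 10-cell minimum, chosen after seeing the data, the 14 to 40 control cells of cluster 4 carried 4753, 4809 and 5468 CPM, 0.34 ± 0.11 above cluster 9 on the log2 scale (3 of 3 libraries), with 7 members higher and none lower (background 13.7% and 22.3%). The small cluster 4 of healthy cords therefore also lay above its own library's homeostatic cells.

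Subunit by subunit, a member was counted as moved where its mean log2 ratio passed log2(1.5) and every library lay on the same side. Between clusters 4 and 3, 7 of 35 members were higher by this rule and none was lower, while 3.67% of the 5285 genes with at least 20 CPM were higher and 32.1% were lower. The median member ratio was 0.36 against -0.31 over those genes, and 24 members were higher in all 6 libraries. The share of all genes higher in all 6 libraries was not counted. Because so many genes lay below zero on this scale, the counts depended on scaling: with TMM-scaled sums, which centre the bulk of genes, 29 members were higher and none lower, against a background of 18% and 14.8%. The direction of the summed members was the same under both scalings.

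Ndufa1, a small proximal membrane-arm subunit needed for assembly, had the largest ratio, 0.78 ± 0.16 on the log2 scale (n = 6). Its level in cluster 4 was 251 CPM at the lowest, 347 at the median and 493 at the highest, against 145, 210 and 262 CPM in cluster 3. Ndufc1, another proximal membrane-arm subunit, spanned 175 to 329 CPM (median 269) in cluster 4 and 96.7 to 214 CPM (median 162) in cluster 3, a ratio of 0.75 ± 0.19. Both members overlapped in range between the states but were higher in cluster 4 within each of the 6 libraries.

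In the N module, the accessory subunit Ndufa12 spanned 84.2 to 192 CPM (median 92.5) in cluster 4 and 49.3 to 109 CPM (median 60.3) in cluster 3, a ratio of 0.75 ± 0.18. The flavoprotein accessory subunit Ndufv3 spanned 178 to 318 CPM (median 254) against 96.1 to 220 CPM (median 161), a ratio of 0.64 ± 0.16. These accessory members of the N module lay on the same side as the membrane arm.

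Ndufs5, an accessory subunit of the proximal membrane arm on the intermembrane-space side, spanned 168 to 250 CPM (median 215) in cluster 4 and 114 to 140 CPM (median 128) in cluster 3, with no overlap and a ratio of 0.72 ± 0.21. Ndufb2, a distal membrane-arm subunit, spanned 100.2 to 125 CPM against 63.3 to 85.4 CPM, again with no overlap and a ratio of 0.67 ± 0.14. The seventh moved member was Ndufb7, at 0.59 ± 0.22. Just under the fold threshold of the rule lay Ndufa2 (0.58), Ndufb6 (0.57) and Ndufs6 (0.56).

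**Figure D2:**
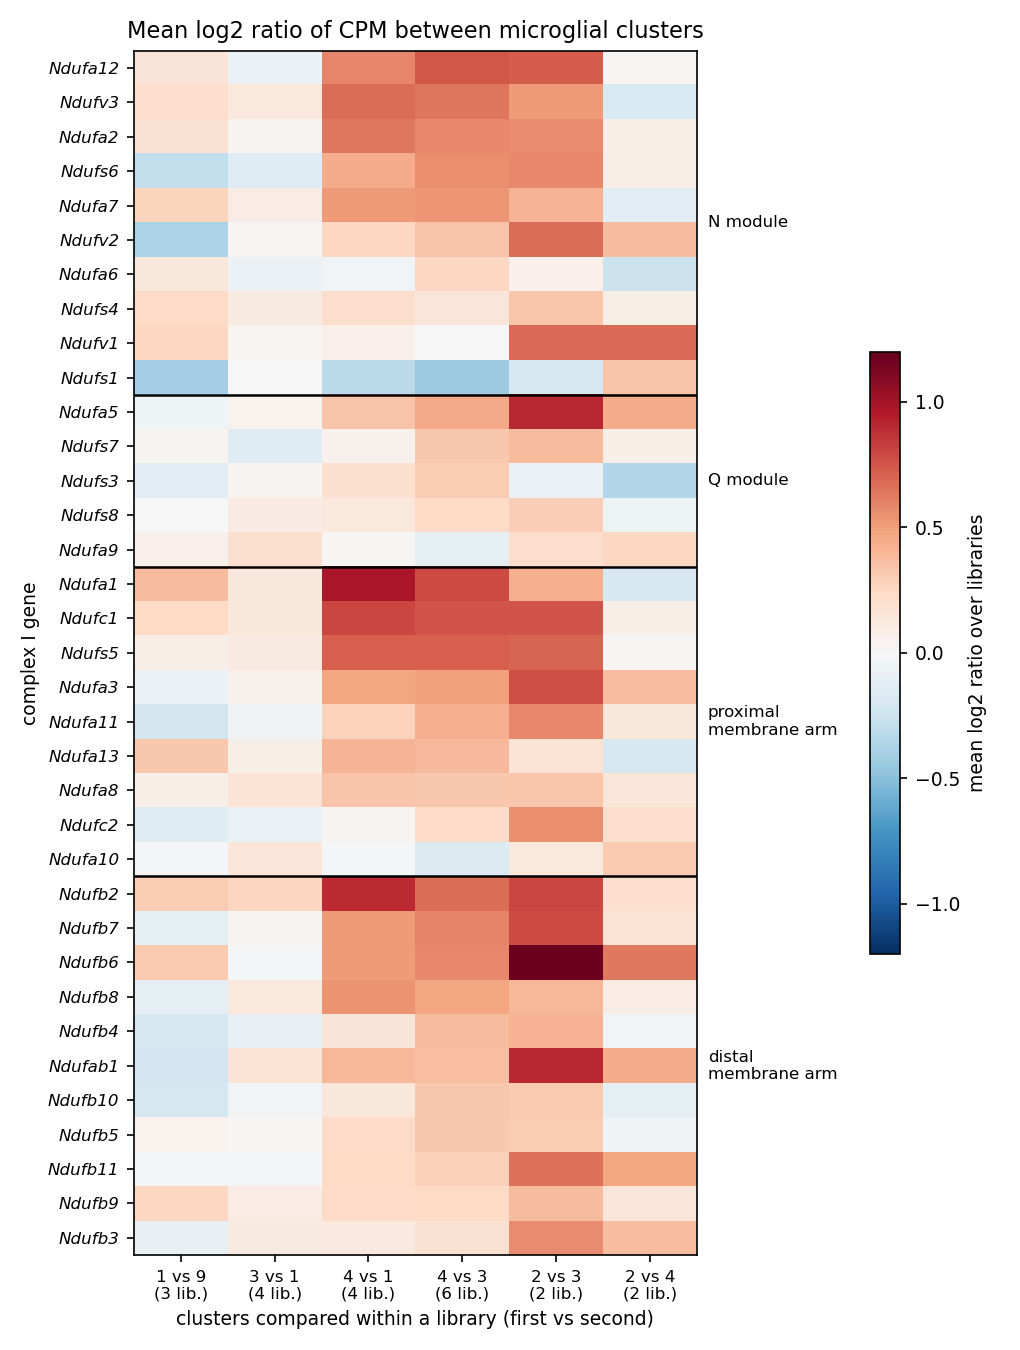
Mean log2 ratio of CPM over libraries for each of the 35 members (rows, grouped by module) in 6 pairs of clusters (columns, with the number of libraries), red where the first-named cluster is higher and blue where it is lower. The columns of cluster 4 against clusters 1 and 3 are mostly red, with Ndufs1 blue in both (-0.31 and -0.44 with the library totals drawn here, 0.16 and -0.064 with TMM scaling).

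The core subunits carry the flavin, the iron-sulfur clusters and the ubiquinone site. With library totals, none of them passed the counting rule between clusters 4 and 3. This count is tied to that scaling, since with TMM scaling 29 of 35 members were higher. Ndufs1, the largest core subunit and a carrier of iron-sulfur clusters in the N module, had a log2 ratio of -0.44 ± 0.21 with library totals, lower in cluster 4 in 6 of 6 libraries, where the median of all genes was -0.31. With TMM scaling its ratio was -0.064 ± 0.13, lower in 4 of 6, and with the 10-cell minimum it was -0.091. It spanned 16.7 to 29.8 CPM (median 25.8) in cluster 4 and 29.2 to 34.8 CPM (median 33.2) in cluster 3. Ndufv1, which binds NADH and the flavin, had a ratio of -0.0086 ± 0.22, within the spread between libraries, and 0.37 ± 0.27 with TMM scaling. Its neighbour Ndufv2 was higher by 0.34 ± 0.22 in 6 of 6 libraries.

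In the Q module, the core subunits Ndufs3 (0.31 ± 0.25) and Ndufs7 (0.33 ± 0.23), the latter next to the ubiquinone site, were higher in cluster 4 in 6 of 6 libraries. Ndufs8, another iron-sulfur subunit of that module, had a ratio of 0.24 ± 0.35 and was higher in 4 of 6. By module, the summed ratio was 0.47 ± 0.10 for N, 0.29 ± 0.22 for Q, 0.48 ± 0.12 for the proximal and 0.38 ± 0.16 for the distal membrane arm. The module sums lay within each other's spread between libraries, while members within a module ranged widely.

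The members with a YY1-type match were spread over this whole range, from Ndufc1 (0.75) and Ndufs6 (0.56) to Ndufs4 (0.15) and Ndufa9 (-0.11, or 0.26 with TMM scaling). Those with an NRF1-type match had ratios of 0.25 for Ndufa6, 0.32 for Ndufa8 and 0.43 for Ndufa11. Across the 35 members the ratio correlated with median annotated transcript length at a Pearson r of -0.28 and a Spearman rho of -0.41, a description over genes that share libraries and depth.

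Against cluster 1, 7 of 35 members were higher and none lower in cluster 4 (background 6.7% higher and 37.6% lower, and with TMM scaling 27 members higher against 22.8% and 14.1%). In chronic a, b and c and chronic infiltrating b, Ndufa1 stood at 404, 494, 290 and 493 CPM in cluster 4 against 217, 219, 154 and 256 CPM in cluster 1, a ratio of 0.98 ± 0.13. Ndufb2 stood at 107.7, 112.2, 119.5 and 100.2 CPM against 58.0, 43.1, 71.9 and 64.1 CPM, a ratio of 0.90 ± 0.32, with no overlap. Ndufc1 (0.80 ± 0.11), Ndufs5 (0.72 ± 0.19), Ndufv3 (0.67 ± 0.15) and Ndufa2 (0.63 ± 0.16) were the next largest, and Ndufa12 (0.59 ± 0.29) completed the 7. Of these, 6 were also among the 7 members higher against cluster 3, and both comparisons share the cluster 4 sums. Ndufs1 was lower in 4 of 4 libraries with library totals (-0.31 ± 0.16), but turned to 0.16 ± 0.18 with TMM scaling, higher in 3 of 4.

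In proliferating cluster 2 against cluster 3, 12 of 35 members were higher and none lower (background 15.3% higher and 20.1% lower). Distal membrane-arm subunit Ndufb6 had the largest ratio, 1.18 ± 0.37 (n = 2), with 115 and 132 CPM in cluster 2 against 61.5 and 49.2 CPM in cluster 3 of peak b and chronic a. Ndufa5 stood at 168 and 234 CPM against 93.8 and 121 CPM. Ndufab1, the mitochondrial acyl carrier protein that also serves lipoate synthesis, stood at 205 and 307 CPM against 136 and 134 CPM. With library totals, Ndufv1 (0.68 ± 0.09) and Ndufv2 (0.67 ± 0.22), the NADH-binding pair, were on the list for cluster 2, from 2 libraries. Neither was on the list for cluster 4 with that scaling. TMM scaling moved the 2 comparisons unequally. The summed ratio to cluster 3 went from 0.43 to 0.80 for cluster 4, and from 0.49 to 0.55 for cluster 2.

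Several library and cell measures moved with the state comparisons. The share of UMIs from cytosolic ribosomal protein genes was 14.01% to 25.8% in cluster 4, 12.01% to 18.9% in cluster 3 and 9.35% to 10.0% in cluster 9. With ribosomal protein genes taken out of the totals, the summed ratio of cluster 4 to cluster 3 was 0.50 ± 0.17. There 11 members were higher (background 4.67%). Median UMIs per cell were lower in cluster 4 than in cluster 3 at the peak (4450 and 5655 against 9224 and 10677) and higher in chronic c (4696 against 3379). Markers of infiltrating macrophages summed to 232 to 719 CPM in cluster 4 and 94.3 to 228 CPM in cluster 3, and those of border-associated macrophages to 13.9 to 209 and 4.71 to 30.6 CPM. The part of cell depth and of these macrophage markers in the result was not tested.

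The gap between clusters 4 and 3 was 0.64 and 0.52 in peak a and b, and 0.30, 0.38 and 0.37 in chronic a, b and c. At the peak 20 members were higher and 1, Ndufs1, was lower by the counting rule (background 5.9% higher and 43.5% lower), against 6 higher and none lower in the chronic resident libraries (background 4.7% and 28%). The difference between the stages in this gap was not tested.

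Between disease stages, complex I transcripts of whole annotated microglia were higher in chronic EAE than in controls, by an amount that depended on the sequencing pool. In the edgeR quasi-likelihood fit of 8 resident libraries, 23 of 35 members rose from control to chronic EAE and none fell at an adjusted p under 0.05, against 15% of 11078 tested genes that rose and 13.4% that fell. With the sequencing pool as a term in the same fit, 0 of these 23 were called and the member median was 0.30. The fit with that term had 2 residual degrees of freedom and called 564 of the 11078 genes. The chronic calls of single members thus hold for the fit without the pool term. The members' median log2 fold change was 0.84 against -0.06 over all genes. From control to peak, 9 members rose and none fell (background 16% and 14.1%, member median 0.55 against -0.01 over all genes). From peak to chronic, 2 rose and none fell (background 9.78% and 11.9%), a share below the background. The chronic and peak comparisons share the control libraries.

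**Figure D3:**
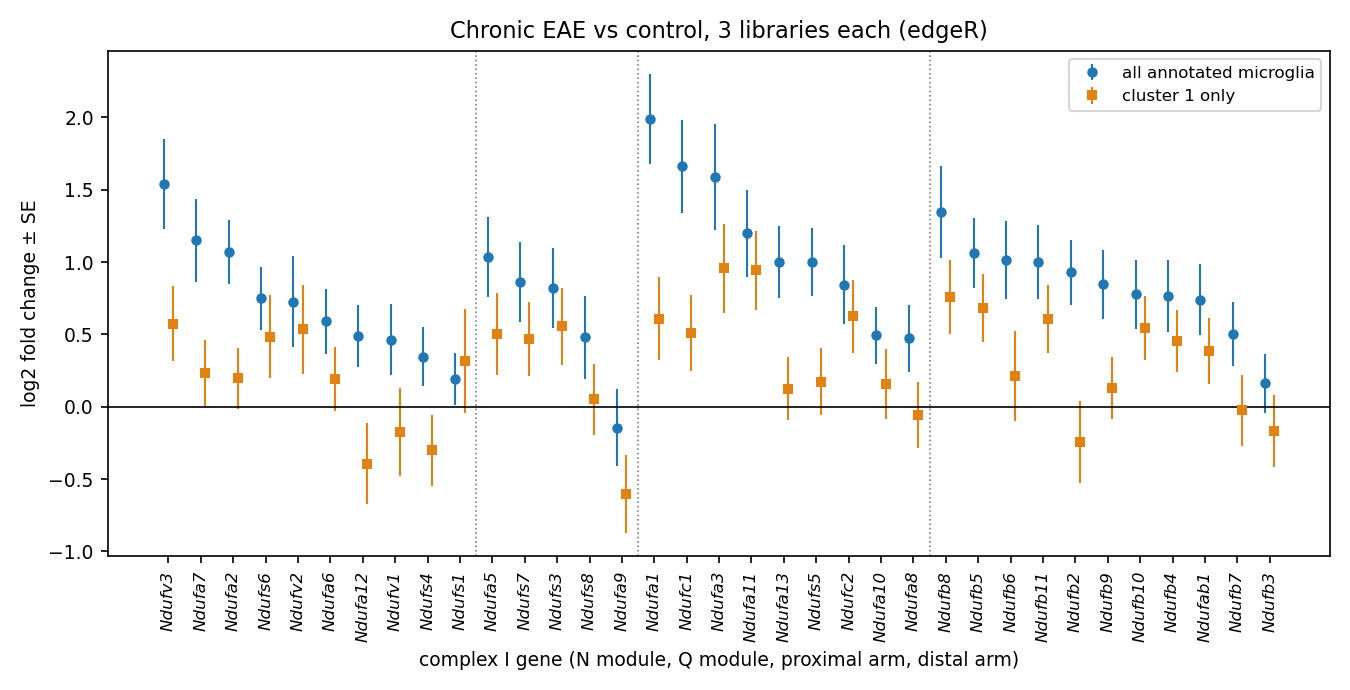
Log2 fold change of chronic EAE against control (vertical axis, edgeR, bars are the standard error, 3 libraries each) for the 35 members by module (horizontal axis), in all annotated microglia (circles) and in cluster 1 only (squares). Of the circles 34 lie above zero, with Ndufa1 highest at 1.99, and the squares lie lower for most members, with a median of 0.32 against 0.84.

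Ndufa1 had the smallest p in the chronic stage (log2 fold change 1.99 ± 0.31 SE, edgeR adjusted p = 0.000549). Its TMM-scaled level was 103.1, 63.8 and 108.1 CPM in control a, b and c, 154.5 and 227.4 CPM in peak a and b, and 406.8, 469.8 and 219.1 CPM in chronic a, b and c. The stages did not overlap except that peak b lay above chronic c. Between control and chronic EAE, 30 of 35 members did not overlap, against 45.7% of all genes tested. From control to peak it was 15 of 35 against 56.1%, and from peak to chronic 3 of 35 against 50.6%. Ndufc1 (1.66, edgeR adjusted p = 0.00245) stood at 89.1, 65.9 and 97.0 CPM in the controls, 115.4 and 188.5 at the peak, and 323.9, 335.9 and 139.7 CPM in the chronic libraries. Ndufa3, a further proximal membrane-arm subunit (1.59, adjusted p = 0.00664), stood at 160.0, 76.3 and 150.9 CPM in the controls, 104.9 and 166.0 at the peak, and 485.8, 487.0 and 195.1 CPM in the chronic libraries. Its chronic values lay above the controls and the peak in every library, and Ndufa3 also rose from peak to chronic (1.52 ± 0.42, adjusted p = 0.0242).

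Among the distal membrane-arm subunits, Ndufb8 (1.34, edgeR adjusted p = 0.00754), stood at 138.4, 103.9 and 153.9 CPM in the controls, 133.3 and 240.8 at the peak, and 393.8, 424.7 and 189.5 CPM in the chronic libraries. Ndufb5 (1.06, adjusted p = 0.00624) stood at 101.0, 84.5 and 116.9 CPM, then 138.3 and 213.7, then 238.5, 233.6 and 159.8 CPM, and it also rose from control to peak (0.80, adjusted p = 0.035). Controls were below both disease stages for Ndufb5, whereas peak a was within the control range for Ndufb8. Ndufs5 of the proximal arm (1.00, adjusted p = 0.00765) stood at 88.8, 90.1 and 106.1 CPM in the controls, 127.4 and 200.0 at the peak and 203.8, 223.9 and 143.2 CPM in the chronic libraries.

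Of the N-module members, Ndufv3 (1.54, edgeR adjusted p = 0.00308) stood at 109.9, 68.0 and 94.3 CPM in the controls, 107.2 and 167.0 at the peak, and 315.7, 327.5 and 149.0 CPM in the chronic libraries. Ndufa2, a small subunit with a thioredoxin-like fold (1.07, adjusted p = 0.00384), stood at 157.3, 140.8 and 181.4 CPM, then 220.6 and 301.2, then 366.1, 368.6 and 273.0 CPM. For Ndufa2 the controls lay below all 5 disease libraries.

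Other N-module subunits had the smallest p at the peak. Ndufs6, a zinc-binding subunit added late in assembly, had the smallest p there (log2 fold change 1.27 ± 0.24, edgeR adjusted p = 0.00163), at 42.6, 52.4 and 47.5 CPM in the controls and 94.5 and 134.1 CPM at the peak. In chronic EAE it stood at 94.7, 84.5 and 61.1 CPM, a chronic against peak difference of -0.52 that did not pass the test. Ndufa12 (0.95, adjusted p = 0.00903) stood at 64.9, 61.6 and 61.3 CPM in the controls, 89.7 and 151.8 at the peak, and 98.1, 90.1 and 75.6 CPM in the chronic libraries. Ndufs4, whose loss in mice gives a model of Leigh syndrome, rose by 0.80 at the peak (adjusted p = 0.0158), from 51.1, 57.9 and 53.4 CPM to 76.1 and 112.0 CPM, and stood at 76.7, 72.0 and 58.3 CPM in the chronic libraries. For these 3 genes every disease library lay above every control. Between control and peak, 56.1% of all genes had no overlap in either direction, against 15 of 35 members. Ndufa1 (1.06), Ndufs5 (0.79), Ndufb2 (0.73), Ndufa2 (0.71) and Ndufb7 (0.69) were the other members that rose at the peak.

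**Figure D4:**
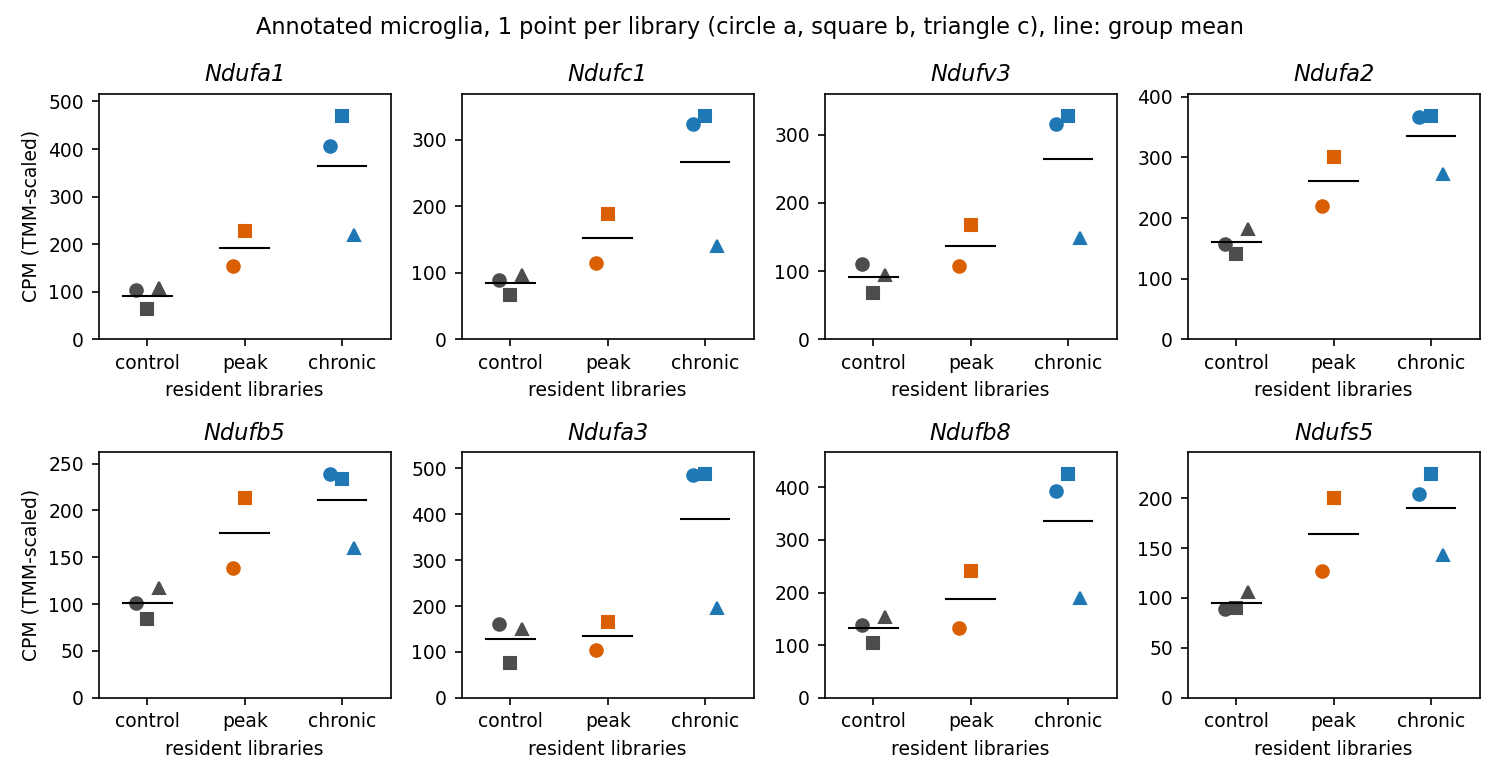
TMM-scaled CPM (vertical axis) in annotated microglia of the control, peak and chronic resident libraries (horizontal axis) for the 8 members with the smallest p in chronic against control, 1 point per library, with a line at each group mean. In all 8 panels the highest points are chronic a and b, and chronic c lies below them, at 219.1 CPM for Ndufa1 against 406.8 and 469.8 CPM.

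Of the core subunits, Ndufs3 (0.82 ± 0.28, edgeR adjusted p = 0.0425) and Ndufs7 (0.86 ± 0.27, adjusted p = 0.0323) rose from control to chronic EAE. Ndufs7 stood at 112.9, 76.9 and 130.4 CPM in the controls, 72.2 and 130.4 at the peak, and 219.5, 218.1 and 145.4 CPM in the chronic libraries, and it rose from peak to chronic as well (0.94 ± 0.32, adjusted p = 0.0493). Ndufs3 stood at 85.4, 68.0 and 85.8 CPM, then 93.4 and 178.6, then 151.9, 177.1 and 94.2 CPM. The remaining core members did not pass the test at either stage.

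Ndufv1 stood at 33.5, 28.2 and 32.2 CPM in the controls, 27.3 and 54.1 at the peak and 49.9, 46.6 and 33.7 CPM in the chronic libraries (chronic against control 0.46, edgeR adjusted p = 0.17). Ndufv2 stood at 72.6, 48.1 and 62.5 CPM, then 38.6 and 98.6, then 115.8, 119.5 and 68.7 CPM (0.73, adjusted p = 0.0974). For both, peak a was below every control and peak b above every control.

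Ndufs8 stood at 89.9, 59.9 and 81.0 CPM in the controls, 58.8 and 128.4 at the peak and 131.6, 113.0 and 78.8 CPM in the chronic libraries (0.48, edgeR adjusted p = 0.217). Ndufs1 had the narrowest spread of the core members, 30.6, 29.3 and 31.9 CPM in the controls, 26.3 and 29.96 at the peak and 38.1, 37.6 and 29.8 CPM in the chronic libraries (0.19, adjusted p = 0.437). By module, 4 of 10 N, 3 of 5 Q, 7 of 9 proximal and 9 of 11 distal members rose in chronic EAE, with median log2 fold changes of 0.66, 0.82, 1.00 and 0.85. The member with the lowest value was Ndufa9, a Q-module subunit that binds NADPH, at -0.14.

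Sequencing pool and stage were partly tied: pool D held only chronic a and b, which had the highest member levels. With pool as a term in the fit, none of the 23 chronic calls was kept (edgeR, 0 called and 1 at an unadjusted p under 0.05, against 24 called by DESeq2 without the term; member median 0.30, 32 of 35 positive). In chronic against peak the pool term left 0 called, 0 at an unadjusted p under 0.05, and turned the member median to -0.46. No pool held both of these stages, so that contrast ran through the single controls of pools B and C. With the pool term the fit had 2 residual degrees of freedom. Of all 11078 genes it called 70 in chronic against peak, 564 in chronic against control and 2318 in peak against control. At the peak 9 were called with the pool term, of which 5 were among the 9 called without it, and Ndufs4, Ndufs5, Ndufa2 and Ndufb7 were lost. Within pool B, which holds the stage-matched pair, the chronic c to control c ratio had a median of 0.30 on the log2 scale over the members and 32 of 35 were higher, 3 of them past 1.5-fold. Within pool C, peak against control b had a median of 0.79 with 34 of 35 higher, made up of 0.38 for peak a and 1.14 for peak b. Single libraries moved the counts. At the peak, the member median was 0.13 without peak b and 0.86 without peak a, fits that leave 1 peak library. Without control a, b and c, 2, 3 and 3 members were called, against 2388 of 10999, 3340 of 11004 and 2285 of 11015 genes. In the chronic stage, 15 were called without control a, 14 without chronic a and 12 without chronic b. Over all genes, these fits called 2392 of 10999, 1721 of 11046 and 1735 of 11034. From peak to chronic, 0 were called without chronic b, 1 without control a, control c or chronic a, 4 without control b and 10 without chronic c. Of all genes, 1206 of 11034 were called without chronic b, 2594 of 11004 without control b and 3558 of 11054 without chronic c. Without peak a, which leaves 1 peak library, the member median was 0.043. Library size as the only scaling moved the median of all genes to -0.33 at the peak and -0.51 in chronic EAE. With it, 2 and 14 members rose, while 3755 and 5295 of all 11078 genes were called in either direction.

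Stage and state mix also moved together, since the chronic libraries held more cluster 4. Summed complex I CPM over all microglia was 4128, 3609 and 4247 in control a, b and c and 6187, 6272 and 4544 in chronic a, b and c. With clusters 1, 3 and 4 weighted equally in each library, at a 10-cell minimum, the values were 4447, 3957 and 4605 CPM in the controls and 5694, 5794 and 4432 CPM in the chronic libraries, so that chronic c lay inside the control range. The log2 ratio of chronic to control was 0.49 as found and 0.28 with equal weights. Markers of infiltrating macrophages summed to 17.0 to 20.4 CPM in control microglia, 173 to 232 at the peak and 317 to 460 CPM in chronic EAE, those of border-associated macrophages to 1.85 to 4.86, 6.63 to 7.63 and 72.2 to 114 CPM, and those of monocytes to 2.03 to 6.46, 12.2 to 38.1 and 1.89 to 4.44 CPM. The median mitochondrial percent per cell was 1.08 to 1.46 in control, 2.27 to 2.63 in peak and 0.966 to 1.47 in chronic microglia, and the ribosomal protein share of UMIs was 9.55% to 10.2%, 17.1% to 20.7% and 13.4% to 17.1%. Their part in the stage differences, and that of the higher depth of peak cells, was not tested.

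Stages were also compared inside 1 state at a time, without a pool term. In cluster 1, none of 35 members passed the test between control and chronic EAE (edgeR, 3 against 3 libraries, background 0.488% higher and 0.359% lower), 11 had an unadjusted p under 0.05, and the member median was 0.32 against -0.01 over all genes, with 27 of 35 positive. Few genes of any kind were called in that fit, 59 of 6973. The lowest adjusted p belonged to Ndufa11, a proximal membrane-arm subunit (0.94, edgeR adjusted p = 0.155), at 83.3, 56.7 and 81.0 CPM in the controls and 163.2, 165.1 and 101.1 CPM in the chronic libraries, without overlap. Leaving out chronic c, 9 members were called, against 624 of all 5762 genes tested (10.8%). The share of all genes at an unadjusted p under 0.05 was not counted.

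In cluster 3, 4 of 35 members rose from peak to chronic and none fell (background 8.67% and 9.92%), a share close to the background. In the fits of clusters 3 and 4, both peak libraries came from pool C and no chronic library did. Stage and pool therefore cannot be told apart there. Ndufa3 rose by 1.498 ± 0.34 (edgeR adjusted p = 0.00636), from 86.9 and 121.0 CPM to 394.5, 330.0 and 157.1 CPM. Ndufs7 rose by 0.92 (adjusted p = 0.0322), from 60.0 and 101.2 CPM to 177.1, 168.8 and 113.4 CPM. The membrane-arm subunit Ndufc2 (0.86, edgeR adjusted p = 0.0387) and Ndufv3 (0.86, adjusted p = 0.0466) were the other members called. For all 4 genes the peak and chronic libraries did not overlap. Within states, the share of all genes without overlap was not counted. Without chronic b 1 member was called (9.78% of all genes), without chronic a 1 higher and 1 lower (15.5%), and without chronic c 12 (28.7%). Without peak a or peak b, which leaves 1 peak library, the member median was 0.015 or 0.54.

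In cluster 4, 1 member changed from peak to chronic and it fell (background 1.98% higher and 2.71% lower). This was Ndufa12, at 148.9 and 226.4 CPM at the peak and 90.0, 90.9 and 82.4 CPM in the chronic libraries (-1.11 ± 0.26, edgeR adjusted p = 0.036). Ndufs6 (-0.89, edgeR adjusted p = 0.0859) and Ndufs4 (-0.91, adjusted p = 0.128), the other N-module subunits with the smallest p at the peak, did not pass the test. The member median in cluster 4 was -0.19 against 0.02 over all genes. As in cluster 3, stage and pool cannot be told apart here. Without chronic a or chronic b 0 members were called (2.69% and 3.08% of all genes), and without chronic c 3, 1 of those higher (9.78%). Without peak a or peak b, which leaves 1 peak library, the member median was -0.44 or 0.20.

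Infiltrating cell types were set beside microglia within the same libraries. Macrophages had a summed member level 0.22 ± 0.13 above microglia on the log2 scale (5 of 5 libraries), and no member passed the counting rule (background 5.61% higher and 21.2% lower). Monocytes were 0.42 ± 0.04 above (n = 2), with 7 members higher and none lower (background 15.2% and 25.2%), led by Ndufs4 at 0.89 ± 0.17. T cells were 0.55 ± 0.08 above (n = 4) with 16 members higher, among them Ndufb7 (1.26 ± 0.21), Ndufs4 (1.15 ± 0.42) and Ndufs1 (0.77 ± 0.25), but 36.5% of all genes were higher and 19.9% lower there by the same rule.

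The genes around complex I in the pathway were read from fixed lists. The counts are for chronic against control microglia, where 15% of all genes tested rose and 13.4% fell. Of 16 complex I assembly factors tested, 2 rose, Ndufaf8 (1.03 ± 0.22, edgeR adjusted p = 0.00416) and Ndufaf3 (0.70, adjusted p = 0.0439), and 1 fell, Acad9 (-0.65, adjusted p = 0.0349). Of 11 other enzymes that pass electrons to ubiquinone, 3 rose: Sdhb, an iron-sulfur subunit of succinate dehydrogenase (1.57), Etfa, an electron carrier from fatty acid oxidation (1.32), and Gpd2, the mitochondrial glycerol phosphate dehydrogenase (0.94). Of 13 ubiquinone synthesis genes 2 rose, Coq7 (1.94 ± 0.29, adjusted p = 0.000449) and Coq3 (0.76). Of 11 tested biogenesis regulators 1 rose, Ppargc1b (0.98), and none fell at the threshold. The list leaned the other way, with 9 of 11 below zero and a median of -0.31 against -0.06 over all genes. When 1 library was left out, the numbers that passed the test in either direction ran from 1 to 8 assembly factors, 2 to 5 other enzymes, 1 to 2 ubiquinone synthesis genes and 0 to 4 biogenesis regulators.

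The other complexes were also measured: 6 of 9 nuclear subunits of complex III, 11 of 11 of complex IV and 12 of 15 of ATP synthase rose in chronic EAE, with list medians of 0.98, 1.17 and 1.08, against the same background of 15%. Leaving out 1 library gave 4 to 8, 9 to 11 and 9 to 13 calls, and the pool term left 0 in each of these 3 lists, with medians of 0.33, 0.62 and 0.40. Complex I, with 23 of 35, lay beside them. From control to peak, 3 of 9, 9 of 11 and 5 of 15 rose (background 16%), and leaving out 1 library gave 0 to 3, 1 to 9 and 1 to 11.

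**Figure D5:**
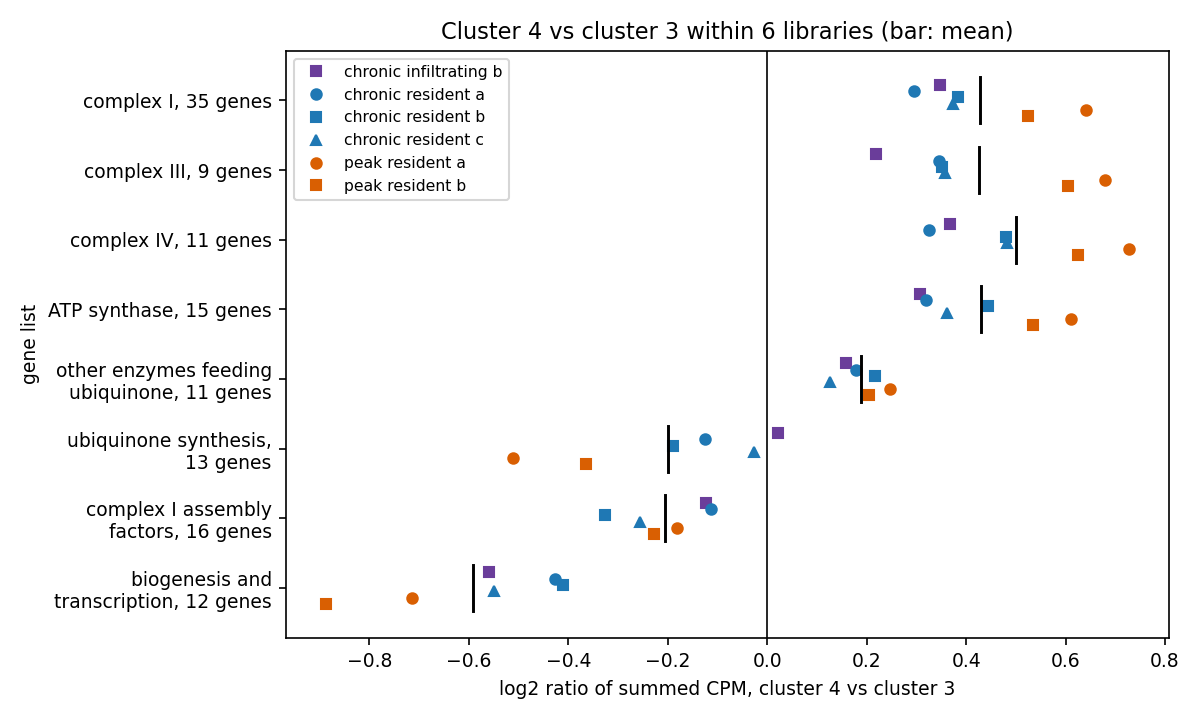
Log2 ratio of summed CPM, cluster 4 against cluster 3 (horizontal axis), for the complex I members and 7 pathway lists (vertical axis), 1 point for each of 6 libraries, with a black bar at the mean. With these library totals complexes I, III, IV and ATP synthase lie above zero in 6 of 6 libraries, and the means of the assembly factors and of ubiquinone synthesis lie below zero, which turn to 0.17 and 0.18 with TMM scaling.

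Between clusters 4 and 3, complex III (0.43 ± 0.18), complex IV (0.50 ± 0.15) and ATP synthase (0.43 ± 0.12) had ratios like that of complex I. The assembly factors of complex I were lower in cluster 4 in 6 of 6 libraries with library totals (-0.21 ± 0.08), but higher by 0.17 in 6 of 6 with TMM scaling. Ubiquinone synthesis genes had a ratio of -0.20 ± 0.20 with library totals, higher in 1 of 6 libraries, and 0.18 ± 0.15 with TMM scaling, higher in 5 of 6. Biogenesis regulators were lower under both scalings (-0.59 ± 0.18 and -0.22).

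Over the 24 library-by-state sums with at least 50 cells, the 5 genes whose level was most like the summed members, among 2892 compared, were Atp5j (Pearson r 0.968), Uqcrb (0.965), Sem1 (0.959), Elob (0.947) and Swi5 (0.946). Atp5j and Uqcrb encode small subunits of ATP synthase and of complex III. These points share libraries, depth and pools.

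Some members share exonic sequence with a neighbouring gene, so that their counts carry an uncertainty the totals do not show. On the same strand Ndufb2, Ndufb8 and Ndufb9 overlap Gm42420, Gm20538 and Gm49356 in GRCm38 (GENCODE). On the other strand, Ndufa2 overlaps Tmco6, Ndufa3 overlaps Tfpt, Ndufs3 overlaps Kbtbd4 and Ndufs6 overlaps Mrpl36. Also on that strand, Ndufs1 overlaps Ino80dos and Eef1b2, Ndufb2 overlaps Gm16272 and Braf, and Ndufb5 overlaps Mrpl47. Ndufb6 overlaps Smim27 there, Ndufb11 overlaps Rbm10 and Ndufab1 overlaps Gm44986. Ndufa9, Ndufa11 and Ndufa13 overlap 1700018A23Rik, Vmac and Tssk6 in the same way. Ndufa1 (chromosome X, 37187588 to 37191163, minus strand) and Ndufc1 (chromosome 3, 51404677 to 51408988, minus strand) had no such overlap.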

How the data were processed

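Spinal cord cells from 13 libraries were profiled by droplet single-cell RNA sequencing. The deposited matrix holds UMI counts, which the authors made with Cell Ranger 3.1.0 on build GRCm38 (mm10), per the submitters' processing notes. The authors' deposited cell table also gives each cell's mitochondrial percent (at most 5) and the log10 of its total UMIs. It further gives cell type, cluster, stage, gate, a batch date and an identifier headed SLX, read here as the sequencing pool. Each library had 1 batch date, which was not used. That table marks 0 doublets, and the matrix holds 0 mitochondrially encoded genes. The cell type and cluster labels were taken as deposited. Of the barcodes, 55 occur in more than 1 library (110 cells), 8 of them within 1 pool.

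Libraries were tied to groups by the stage and gate in the cell table, which gives no replicate number. Counts were summed per library, cell type and cluster. States with at least 50 cells were compared as log2 ratios of CPM with 1 UMI added, as mean ± SD over libraries and without a test. UMI counts are not divided by transcript length, so levels were not compared between genes. For stages, the test was edgeR's (version 4.0.16, under R 4.3.3; filterByExpr, TMM, quasi-likelihood, Benjamini-Hochberg over all 11078 genes tested, threshold 0.05, 5 residual degrees of freedom), and all 35 members passed the filter. DESeq2 1.42.0 was an alternative. On counts simulated for chronic against control over 11078 genes, 70 of 100 genes changed by 1 on the log2 scale and 100 of 100 changed by 2 were called, and 14 of 10668 unchanged genes. P-values measure the spread between these libraries, whose number of animals is not given in the labels.

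Members and lists were chosen with earlier results of these data known. Values per library are given for the core subunits, for up to 8 called members per stage comparison with the smallest p and for up to 6 moved members per state pair with the largest ratio, with the rest as counts. The overlaps, motif members and cell type examples were named after their values were seen. Promoter sequences are RefSeq's.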

Additional observations from a re-analysis of the deposited data

Results flagged for a closer look

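Ndufb3, a distal membrane-arm subunit, was the only member whose ratio between lipid-associated cluster 4 and interferon cluster 3 lay above zero in every resident library of 1 stage and below zero in every resident library of the other. The log2 ratio was 0.59 and 0.43 in the peak libraries (mean 0.51) and -0.03, -0.14 and -0.02 in chronic a, b and c (mean -0.06). The chronic mean was lower by 0.58 (chronic minus peak -0.58). The chronic values lie close to zero, and the difference was not tested.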

How the results depend on the processing

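No paired analysis was possible because the deposited cell table gives no replicate number for its libraries. The stage calls depended most on the pool, on scaling and on single libraries. From control to peak, 2 members rose with library size only (median 0.20) and 5 with all cells of the resident libraries. Leaving out each library in turn gave medians of 0.13 to 0.86. From control to chronic, 14 rose with library size only (median 0.38) and 0 with the pool term (median 0.30), with 12 to 27 calls and medians of 0.73 to 1.01 when 1 library was left out. From peak to chronic, DESeq2 called 8 members (2414 of 11078 genes), the fit without a filter 9 (3045 of 16055) and all resident cells 1 (2064 of 11397). The pool term left 0 (70 of 11078 genes, member median -0.46). When 1 library was left out, calls ran from 0 to 10 and medians from 0.043 to 0.62. Within states, leaving out 1 library gave 0 to 9 calls in cluster 1, 0 to 12 in cluster 3 and 0 to 3 in cluster 4.

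Directions of single core members turned as follows, and the cause was not tested. For peak against control, Ndufs7 became 0.40 with the pool term, and when 1 library was left out it ran from -0.57 (without peak b) to 0.28 (without peak a), with 0.09 without control c. Ndufs8 became -0.070 and Ndufv2 -0.19 with library size only, and without peak b Ndufs8 was -0.39, Ndufv1 -0.20 and Ndufv2 -0.66, up to 0.68 for Ndufv2 without peak a. For chronic against control, Ndufs1 became -0.27 with library size only and -0.10 with the pool term, and Ndufs8 -0.040 with the pool term. For chronic against peak with the pool term, values were Ndufa3 -0.46, Ndufs1 -0.045, Ndufs3 -0.87, Ndufs7 -0.24, Ndufs8 -0.69, Ndufv1 -0.48 and Ndufv2 -0.38. With library size only, Ndufs3 was -0.071 and Ndufv1 -0.027. Without peak a, Ndufs3 was -0.30, Ndufs8 -0.21 and Ndufv1 -0.28, without chronic a Ndufs3 -0.01 and Ndufv1 -0.03, and without chronic b Ndufs3 -0.15. The highest values in those leave-outs, all without peak b, were 0.59 for Ndufs3, 0.87 for Ndufs8 and 0.66 for Ndufv1.

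Between states, TMM scaling gave summed ratios of 0.10 for cluster 1 against 9, 0.16 for 3 against 1, 0.86 for 4 against 1 (27 members), 0.80 for 4 against 3 (29 members), 0.78 for 2 against 1, 0.55 for 2 against 3 and -0.28 for 2 against 4 (2 members, both lower). For cluster 4 against 3, averaging over cells gave 11 members higher (background 4.69%) and the 10-cell minimum 4 (background 2.86%). For 4 against 1 the 10-cell minimum gave 4 (background 5.03%). For cluster 2 against 3 the summed ratio was 0.63 averaged over cells and 0.53 at 10 cells. For cluster 2 against 4, 1 member was higher at 30 and at 10 cells, below the background of 24.8% and 22.2%. For 1 against 9, 2 were higher at 100 cells, in 1 library (background 6.84%). Averaged over cells, 1 member was lower for 1 against 9, and the share of all genes lower was not counted. Leaving out 1 library, the summed ratio was -0.01 to 0.05 for 1 against 9 and 0.01 to 0.08 for 3 against 1. It was 0.37 to 0.42 for 4 against 1 and 0.39 to 0.45 for 4 against 3. For 2 against 3 it was 0.45 to 0.52, and for 2 against 4 -0.07 to 0.22. Members higher were 0 to 1 for 1 against 9 (background 4.05% to 6.14%) and 6 to 8 for 4 against 1 (6.63% to 7.17%). For 4 against 3 they were 6 to 8 (3.59% to 4.25%). For 2 against 3, 13 were higher without chronic a and 15 without peak b (background 14.5% and 21.5%). For 2 against 4, 2 were lower without chronic a and 5 higher without peak b, where 37.2% and 27.1% of all genes were higher. Equal state weights moved the chronic to control ratio to 0.28.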
